A study of Mus musculus with 8 samples.

Results

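The immediate early genes described here were Fos, Fosb, Jun, Junb, Egr1, Atf3, Ier2, Ier3, Zfp36 and Dusp1. These 10 genes were taken by symbol from the 32285 genes of a single-cell RNA-seq count matrix of embryonic mouse kidneys, and their levels were followed across cell types and between genotypes. The kidneys came from 2 male Trim28Δ/Δ embryos (ko tags, mice 1 and 2) and 2 male Trim28f/f control embryos (wt tags, mice 3 and 4). The labels gave embryonic day 17.5, while the methods of the study gave a day later. Trim28Δ/Δ embryos carried floxed Trim28 alleles on both chromosomes and the Six2-cre transgene [Tg(Six2-EGFP/cre)1Amc/J], which is active in nephron progenitors, so the deletion passes to nephron epithelium and podocytes but not to stroma, endothelium or ureteric bud derivatives. Cells of all embryos were released with a cold-active protease of Bacillus licheniformis, marked with cell multiplexing oligonucleotide tags and sequenced as 1 pool on the 10x Chromium platform. The 6 bulk RNA samples of newborn kidneys in the series were not analysed here.

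Immediate early genes are transcribed within minutes of a stimulus by factors that are already present in the cell, so that no new protein is needed for their induction. Growth factor and stress signals reach them through MAP kinases, serum response factor with its cofactors, and CREB. Their mRNAs are short-lived, and several of their products switch the response off again. In single-cell studies of solid tissue these genes are known to respond to dissociation of the tissue, and each value is therefore shown for each mouse.

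Promoters of 4 members with different patterns across cell types are given first, as the 250 bases before to 50 bases after the transcription start in the RefSeq annotation of GRCm38.p6, in the direction of transcription. Capitals mark motifs found by a letter search on both strands: the cAMP response element TGACGTCA, its half-site TGACG (also contained in the full element), the CArG box known as the site of serum response factor, and the TATA box TATAAA. Fos is shown as a member with its highest level in immune-like cells and a low level in nephron progenitors, Zfp36 as the member whose immune-like level stood clear of every other class, Dusp1 for its level in endothelium, and Ier3 for its level in the loop of Henle and its spread between the control mice. The windows are chr12:85473640-85473939 on the plus strand for Fos, chr7:28379179-28379478 on the minus strand for Zfp36, chr17:26508423-26508722 on the minus strand for Dusp1 and chr17:35821463-35821762 on the plus strand for Ier3.
Fos: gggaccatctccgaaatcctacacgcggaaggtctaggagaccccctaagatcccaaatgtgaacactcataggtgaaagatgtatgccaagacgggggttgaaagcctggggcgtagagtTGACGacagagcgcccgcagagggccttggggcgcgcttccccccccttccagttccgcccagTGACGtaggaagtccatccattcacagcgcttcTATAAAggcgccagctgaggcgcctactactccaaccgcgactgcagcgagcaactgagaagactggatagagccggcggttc
Zfp36: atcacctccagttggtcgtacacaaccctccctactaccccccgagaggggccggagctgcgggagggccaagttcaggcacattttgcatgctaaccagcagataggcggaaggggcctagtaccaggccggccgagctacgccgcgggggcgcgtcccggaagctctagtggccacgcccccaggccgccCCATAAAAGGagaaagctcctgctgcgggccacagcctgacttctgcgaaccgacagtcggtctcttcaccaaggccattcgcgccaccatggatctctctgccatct
Dusp1: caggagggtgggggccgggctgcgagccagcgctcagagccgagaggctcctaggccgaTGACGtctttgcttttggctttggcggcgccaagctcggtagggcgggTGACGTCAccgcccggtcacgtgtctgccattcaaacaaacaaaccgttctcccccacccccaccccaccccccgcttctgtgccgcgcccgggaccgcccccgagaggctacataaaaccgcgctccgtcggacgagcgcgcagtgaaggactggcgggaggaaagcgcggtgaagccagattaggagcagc
Ier3: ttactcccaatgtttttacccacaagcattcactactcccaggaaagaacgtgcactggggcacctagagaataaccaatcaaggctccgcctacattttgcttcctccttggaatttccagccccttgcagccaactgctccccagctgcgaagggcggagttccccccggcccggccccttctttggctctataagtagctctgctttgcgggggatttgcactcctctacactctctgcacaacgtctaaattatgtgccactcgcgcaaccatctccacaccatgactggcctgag
The Fos window held half-sites 129 and 66 bases before the start and a TATA box 33 bases before it. A single CArG box lay 58 bases before the Zfp36 start. The Dusp1 window had the full element 143 bases before the start and a further half-site 191 bases before it. None of the 4 motifs was found in the Ier3 window. Among the 8 members in the promoter table (all but Egr1 and Ier2), 1 held the full element, 5 the half-site, 1 the CArG box and 2 the TATA box. Of all 32851 promoter windows of this length, 1.79% held the full element, 20.8% the half-site, 1.63% the CArG box and 13.6% the TATA box. A match of letters describes the window and is not a measurement of binding.

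Of 19272 barcodes that passed the filters, 7363 carried 1 of the 4 named tags: 1316 from mouse 1, 1491 from mouse 2, 2749 from mouse 3 and 1807 from mouse 4. Median depth was 16386 to 17354 UMIs (unique molecular identifiers, 1 per captured transcript) a cell. The cells formed 24 clusters, which were named X-like from marker genes or left with their number, and 19 classes had at least 10 cells in every mouse. Levels are given as CPM, the UMIs of a gene relative to all UMIs of 1 mouse and class (or of 1 mouse, for the whole kidney) on the usual counts-per-million scale. Six2 averaged 90.1 CPM in NPC-like cells (nephron progenitors) and 1.84 CPM in PT-like cells (proximal tubule). C1qb averaged 2544 CPM in immune-like and 5.74 CPM in endothelium-like cells. Both genes were among the markers that named these classes, so their levels describe the labels and do not test them. In NPC-like cells Trim28 stood at 27.6 and 23.7 CPM in the Trim28Δ/Δ mice and at 137 and 159.9 CPM in the controls, a log2 difference of -2.68 (SE 0.21, adjusted p = 0.000335, edgeR quasi-likelihood test). In stroma-like cells, where Six2-cre is not active, Trim28 was at 105 and 101 CPM against 84.0 and 112 CPM (0.01, SE 0.25). Counts per gene do not show where along Trim28 the reads of this 3' assay lie, which limits Trim28 as a check of the deletion.

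Control mouse 3 stood apart from the other mice. Cluster 15 (collecting duct-like, led by Elf3 and Gadd45b) drew 175 of its 176 cells from mouse 3, and cluster 20 (loop of Henle-like, led by Umod and the stress gene Ddit3) 99 of 101. Conversely, cluster 10, the main collecting duct-like cluster, had 110, 120 and 90 cells of mice 1, 2 and 4 and 3 cells of mouse 3. Genotype differences are therefore given with and without mouse 3 and, for balance, mouse 4.

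Over all cells of a mouse, no immediate early gene was called different between the genotypes. Summed over the 10 members, the whole-kidney level was 572 and 568 CPM in the Trim28Δ/Δ mice and 758 and 457 CPM in the controls, so the controls gave both the highest and the lowest value. In such a sum, more cells of a type and more RNA per cell cannot be told apart. NPC-like cells, a class with low levels of most members (given below), made up 387 of the 1807 cells of mouse 4. In mice 1, 2 and 3 they were 47 of 1316, 74 of 1491 and 214 of 2749 cells.

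Among the AP-1 genes, whose products pair to form the transcription factor AP-1, the whole-kidney level of Fos was 39.8 and 44.5 CPM in the Trim28Δ/Δ mice and 58.0 and 38.7 CPM in the controls. Fosb, a close relative of Fos, was at 34.3 and 36.9 CPM against 34.4 and 32.0 CPM. Jun, a partner of both, was at 203 and 224 CPM against 256 and 156 CPM. The pairs of Trim28Δ/Δ and control mice overlapped in all of these genes. Junb, a Jun relative with weaker activity, was at 36.7 and 38.0 CPM against 81.5 and 26.5 CPM. Atf3, a stress-induced factor of the ATF/CREB family, was at 5.86 and 5.50 CPM against 13.8 and 3.07 CPM. Both, like Fos and Jun, had their highest level in control mouse 3 and their lowest in control mouse 4, with the Trim28Δ/Δ mice between.

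Egr1, a zinc finger activator of the growth response, was at 39.9 and 44.0 CPM in the Trim28Δ/Δ mice and at 43.0 and 35.4 CPM in the controls. Zfp36, which binds AU-rich elements and destabilises mRNAs, was at 18.7 and 18.5 CPM against 28.7 and 13.5 CPM. Dusp1, a phosphatase that inactivates MAP kinases, was at 21.5 and 20.6 CPM against 18.5 and 15.6 CPM. Egr1 and Zfp36 overlapped between genotypes, whereas both Trim28Δ/Δ values of Dusp1 lay above both control values. Zfp36 was again highest in mouse 3 and lowest in mouse 4. Ier2, a nuclear protein of the early response, was at 70.6 and 70.7 CPM against 55.0 and 69.9 CPM. Ier3, a stress-inducible regulator of cell survival, was at 102 and 66.2 CPM against 169 and 66.4 CPM. The pairs of Ier2 were separate by a small margin, and those of Ier3 overlapped.

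**Figure D1:**
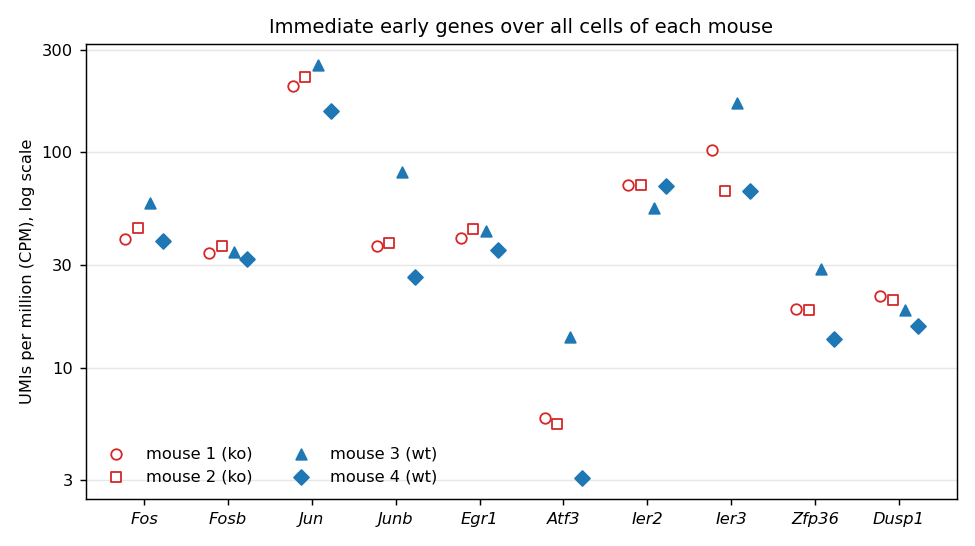
Whole-kidney level of each immediate early gene (CPM, log axis) in each of the 4 mice, with Trim28Δ/Δ and control mice marked by symbol. Control mouse 3 was highest for Junb (81.5 CPM) and Atf3 (13.8 CPM), control mouse 4 was lowest for the same genes (26.5 and 3.07 CPM), and the Trim28Δ/Δ mice lay between. Fos, Jun and Zfp36 had the same order.

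Dusp1 and Ier2 were the members with both Trim28Δ/Δ mice above both controls, and no member had both below. Of all 6556 genes with a mean of at least 20 CPM, 30.8% had both Trim28Δ/Δ mice above and 20.1% below. Of the 7 members with such a mean, to which Dusp1 does not belong, 1 had both above and 0 both below. None of the 10 members passed an adjusted p of 0.05 (edgeR quasi-likelihood test, Benjamini-Hochberg over 16524 genes, of which 0.206% were called). None had an unadjusted p under 0.05, as 15.7% of all genes had, and DESeq2 called 0 members and 4.35% of all genes. The largest log2 differences of Trim28Δ/Δ over control were -0.63 for Atf3 (SE 0.64, adjusted p = 0.681), -0.58 for Junb (SE 0.48, adjusted p = 0.613) and -0.53 for Ier3 (SE 0.44, adjusted p = 0.617). Dusp1 had a log2 difference of 0.26 (SE 0.14, adjusted p = 0.450) and Ier2 of 0.13 (SE 0.15, adjusted p = 0.710). With a mouse left out, that of Dusp1 ran from 0.15 to 0.38.

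The sign of the genotype difference depended on the control mouse for several members. These are sums over all cells of a mouse, and the part of cell numbers in them was not tested. Without mouse 3, 4 members were called, each higher in Trim28Δ/Δ: Atf3 (log2 difference 0.84, adjusted p = 0.0411), Junb (0.45, adjusted p = 0.0200), Zfp36 (0.41, adjusted p = 0.0481) and Jun (0.41, adjusted p = 0.0294). Without mouse 4 the same 4 genes were called lower: Atf3 (-1.33, adjusted p = 0.000993), Junb (-1.17, adjusted p = 0.000168), Zfp36 (-0.67, adjusted p = 0.00283) and Jun (-0.30, adjusted p = 0.0402). Fos (-0.50, adjusted p = 0.00754) and Ier3 (-1.05, adjusted p = 0.0108) were also lower without mouse 4, and Ier2 was higher (0.32, adjusted p = 0.0198). Each of these fits kept a single control mouse, which edgeR assumes to vary like the Trim28Δ/Δ pair. Of all genes tested, 11.4% were called without mouse 3 and 26.2% without mouse 4.

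Leaving out clusters 15 and 20, the clusters of mouse 3, while keeping all other cells moved the log2 difference of Junb from -0.58 to 0.0081 (SE 0.25, adjusted p = 0.991). That of Ier3 moved from -0.53 to -0.30 (SE 0.36, adjusted p = 0.708), and that of Atf3 stayed at -0.60 (SE 0.63, adjusted p = 0.666). In mouse 3, 175 of 178 cells named collecting duct-like, the class with its highest Junb level, lay in cluster 15. Leaving it out therefore took nearly all of that class from mouse 3 and 1 cell from the other mice.

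**Figure D2:**
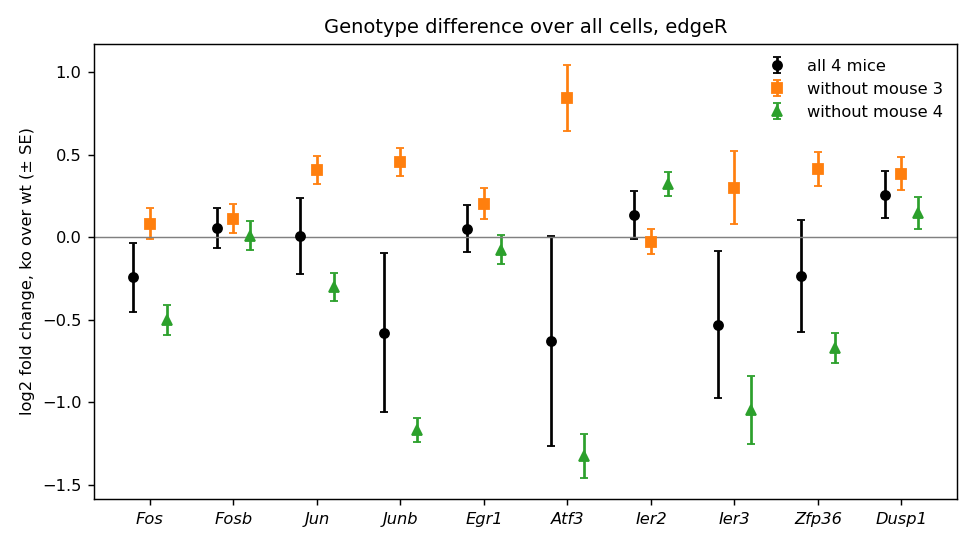
Whole-kidney log2 difference of Trim28Δ/Δ over control for each immediate early gene (points, with bars of 1 SE derived from the edgeR F statistic), with all 4 mice, without control mouse 3 and without control mouse 4. Atf3, Junb, Zfp36 and Jun lay above 0 without mouse 3 (0.41 to 0.84) and below 0 without mouse 4 (-0.30 to -1.33).

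The 10 members had their highest levels in 4 classes. Fos, Jun, Atf3 and Zfp36 had their highest mean level in immune-like cells, Fosb, Junb, Egr1 and Ier2 in collecting duct-like cells, Ier3 in loop of Henle-like cells and Dusp1 in endothelium-like cells. For Atf3 this rank rested on mouse 3, and without that mouse podocyte-like cells had the highest mean (21.7 CPM, from 0, 60.3 and 4.81 CPM in mice 1, 2 and 4, the 60.3 CPM being 10 UMIs in 16 cells), against 17.0 CPM in immune-like cells. The other 9 members kept their class without mouse 3. Jun moved to podocyte-like cells without mouse 1 (479.1 against 433.3 CPM in immune-like cells). It also did so when the genes removed before clustering were kept (451.0 against 439.5 CPM). Fosb moved to mural-like cells without mouse 4 (80.7 against 80.2 CPM in collecting duct-like cells). At the other end, NPC-like cells had the lowest mean of the 19 classes for Fos, Fosb, Junb, Atf3 and Zfp36, and the lowest after erythroid-like cells for Jun, Egr1 and Dusp1. Most neighbouring classes in the order of a gene overlapped in their ranges over the 4 mice, and the exceptions are named with the genes. Classes are clusters of these cells, made without the members among the variable genes, and no class was tested against the rest.

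**Figure D3:**
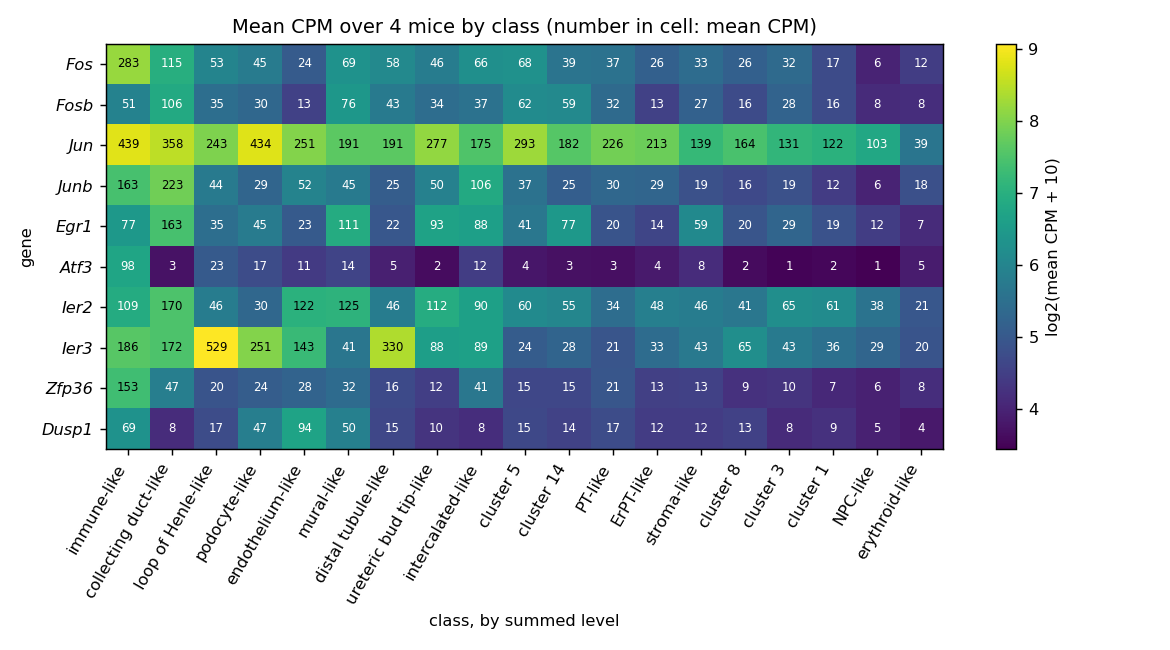
Mean level over the 4 mice (CPM, colour as log2 of CPM + 10, CPM printed in each cell) of the 10 immediate early genes in the 19 classes. NPC-like cells had low values for most members (Fos 6.03, Junb 5.94 and Zfp36 5.57 CPM), and the highest values were those of Ier3 in loop of Henle-like cells (529 CPM) and Jun in immune-like cells (439 CPM).

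Fos stood at 229, 164, 515 and 225 CPM in immune-like cells of mice 1 to 4. In collecting duct-like cells it was 78.7, 60.5, 131 and 190.03 CPM, overlapping the immune-like range. NPC-like cells had 5.11, 6.27, 7.14 and 5.599 CPM, so every mouse was lower there than any mouse in immune-like or collecting duct-like cells. Mouse 3 had the highest level in both immune-like and NPC-like cells. Fosb was at 67.9, 62.1, 111 and 182 CPM in collecting duct-like cells and at 27.8, 124, 90.05 and 60.3 CPM in mural-like cells (vascular smooth muscle, pericytes and renin cells). Its NPC-like level was 3.07, 5.58, 9.85 and 11.98 CPM, with both Trim28Δ/Δ mice below both controls.

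Jun was high in many classes: 458, 387, 588 and 325 CPM in immune-like cells and 298, 488, 593 and 356 CPM in podocyte-like cells. In NPC-like cells Jun was at 133 and 129.6 CPM in the Trim28Δ/Δ mice and at 77.3 and 74.1 CPM in the controls. Erythroid-like cells had 35.2, 62.2, 27.9 and 32.0 CPM, below the NPC-like range in every mouse. By cluster, in cluster 6 (led by Tmem100, Six2 and Wnt4) Jun was at 155 and 159 CPM against 88.3 and 81.1 CPM. In cluster 9 (led by Cited1, a marker of uncommitted progenitors) it was at 41.4 and 73.4 CPM against 53.2 and 65.2 CPM, and the genotypes overlapped. The difference between the clusters was not tested.

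Junb was at 119, 148, 481 and 144 CPM in collecting duct-like cells, with mouse 3 far above the rest. By cluster, Junb was at 485 CPM in the 175 mouse 3 cells of cluster 15 and at 119, 147 and 144 CPM in cluster 10 cells of mice 1, 2 and 4. In immune-like cells it was 129.6, 139.6, 269 and 114 CPM, and in NPC-like cells 2.04, 9.76, 4.68 and 7.29 CPM. Atf3 was a low gene in nearly every class, at 22.3, 26.4, 32.4 and 10.1 CPM in the loop of Henle and at 0, 2.09, 0.246 and 1.04 CPM in NPC-like cells. In immune-like cells, however, Atf3 was at 342 CPM in mouse 3 and at 10.8, 28.3 and 12.04 CPM in mice 1, 2 and 4. The value of mouse 3 came from 375 UMIs in 49 of 73 cells, and the 8 cells with the most UMIs held 56.0% of them. Without mouse 3 the mean of Atf3 in immune-like cells was 17.0 CPM.

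Egr1 was at 156, 160.1, 133 and 204 CPM in collecting duct-like cells, and here mouse 3 was the lowest. Mural-like cells had 48.7, 151, 99.3 and 144 CPM and overlapped with them. The lowest Egr1 level was in erythroid-like cells, at 4.40, 7.78, 15.4 and 2.28 CPM. Zfp36 was at 115, 131, 241 and 126 CPM in immune-like cells, whose range did not overlap that of the next class, collecting duct-like cells (33.2, 36.0, 79.6 and 40.2 CPM). Zfp36 stood at 4.09, 6.97, 6.40 and 4.82 CPM in NPC-like cells.

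Dusp1 had the most even levels between mice of all members in its leading class: 95.2, 104, 84.6 and 94.0 CPM in endothelium-like cells. Immune-like cells followed at 79.9, 60.1, 73.8 and 63.6 CPM, mural-like cells at 48.7, 53.2, 51.1 and 45.9 CPM and podocyte-like cells at 51.2, 66.3, 28.8 and 43.3 CPM. Endothelium-like and immune-like ranges did not overlap with the class after them, and neither did podocyte-like cells with loop of Henle-like cells (15.2, 21.9, 13.2 and 17.9 CPM). Vascular, immune and podocyte-like cells thus all lay above the tubule classes for Dusp1.

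Ier2 was at 152, 155, 149 and 226 CPM in collecting duct-like cells, 153, 164, 75.2 and 106 CPM in mural-like cells and 145, 121, 78.0 and 143 CPM in endothelium-like cells. Mouse 3 was the lowest in each of these classes. In NPC-like cells Ier2 was at 41.9, 47.4, 18.2 and 43.5 CPM, again lowest in mouse 3. Across the 19 classes mouse 3 was the lowest of the 4 mice for Ier2 in 11 and the highest in 1.

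Ier3 differed widely between classes and mice. It was at 777, 534, 221 and 585 CPM in the loop of Henle-like class and in distal tubule-like cells at 349, 227, 253 and 489 CPM. Mouse 3 was the lowest in the loop of Henle, and this held within cluster 11, which all 4 mice shared: 777 and 534 CPM in the Trim28Δ/Δ mice, 219 CPM in mouse 3 and 599 CPM in mouse 4. Cluster 20, of mouse 3, had 222 CPM. In other classes mouse 3 was the highest instead: Ier3 was at 44.0, 46.7, 547 and 52.2 CPM in collecting duct-like cells and at 54.8, 57.6, 369 and 91.4 CPM in endothelium-like cells. In endothelium-like cells of mouse 3, 132 of 157 cells had an Ier3 UMI, against 53 of 133, 31 of 97 and 45 of 99 cells in mice 1, 2 and 4. NPC-like cells had 14.3, 16.0, 71.1 and 13.4 CPM. Mouse 3 was the highest for Ier3 in 16 of the 19 classes, and its level was a median of 3.79 times that of mouse 4 (0.377 to 10.5 times over the classes).

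**Figure D4:**
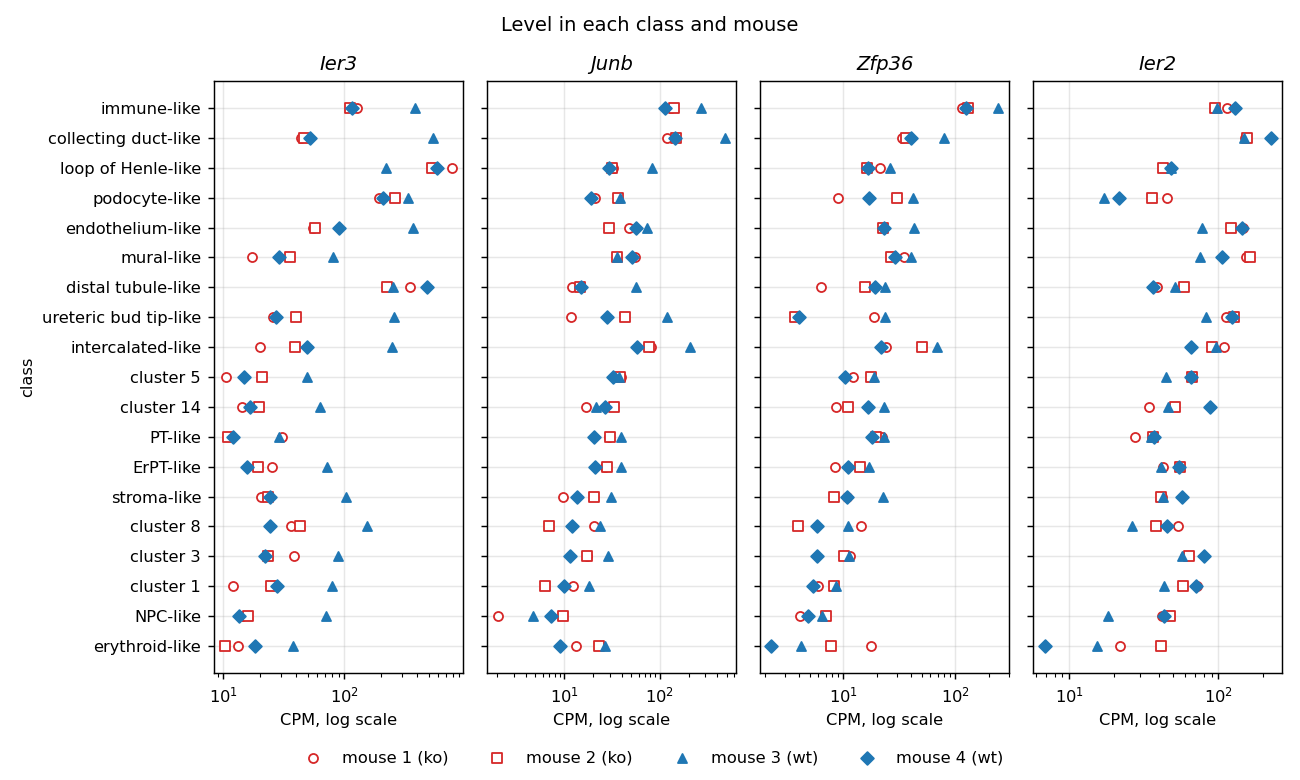
Levels of Ier3, Junb, Zfp36 and Ier2 (CPM, log axis) in each of the 19 classes and 4 mice, with Trim28Δ/Δ and control mice marked by symbol. Mouse 3 was highest in 16 of 19 classes for Ier3 and in 15 of 19 for Junb and for Zfp36, and lowest in 11 of 19 for Ier2.

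Counted over the 10 members and 19 classes, mouse 3 gave the highest of the 4 levels in 92 of 190 cases (48.4%) and the lowest in 38 (20%). Among genes with a mean of at least 20 CPM in a class, mouse 3 was the highest in 26.0% of cases (4.06 to 34.9% by class) and the lowest in 35.5%. Of the member cases, 126 had such a mean, and in these mouse 3 was the highest in 64 (50.8%) and the lowest in 28 (22.2%). The share was uneven between members: mouse 3 was highest in 16 classes for Ier3, 15 for Junb, 15 for Zfp36, 12 for Jun and 10 for Fos, and in 4 for Fosb and 6 for Egr1. Zfp36 was higher in mouse 3 than in mouse 4 in 19 of 19 classes (median 1.83 times) and Jun in 17 (1.61 times). Ier2, at a median of 0.721 times, was higher in mouse 3 in 4 classes. Both Trim28Δ/Δ mice lay above both controls in 21 of the 190 cases (11.1%) and below both in 31 (16.3%). In the 126 cases with a mean of at least 20 CPM these were 17 (13.5%, against 22.6% of all genes with such a mean) and 22 (17.5%, against 14.6%).

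Within the 19 classes, 167 tests of a member were made and 0 were called (edgeR quasi-likelihood test, adjusted p of 0.05), while 0.311% of all tests were called. At an unadjusted p under 0.05 stood 35 member tests (21.0%, against 6.93% of all tests), and DESeq2 called 0 (0.338% of all tests) with 22 under 0.05 (13.2%, against 2.78% of all tests). The members at the lowest adjusted p were Jun in NPC-like cells (log2 difference 0.66, SE 0.16, adjusted p = 0.0979), Fosb in PT-like cells (0.89, SE 0.24, adjusted p = 0.214), Fosb in NPC-like cells (-1.42, SE 0.45, adjusted p = 0.226), Fos in cluster 3 (0.86, SE 0.27, adjusted p = 0.254) and Junb in distal tubule-like cells (-1.58, SE 0.48, adjusted p = 0.267). The smallest unadjusted p was that of Fos in mural-like cells, at 17.4 and 22.2 CPM in Trim28Δ/Δ and at 160 and 77.5 CPM in control (log2 difference -2.69, SE 0.51, adjusted p = 0.478), from 5, 5, 172 and 27 UMIs in 21, 17, 91 and 30 cells. It was called without mouse 1 (-2.56, adjusted p = 0.00845), mouse 2 (-2.84, adjusted p = 0.0432) or mouse 4 (-3.09, adjusted p = 2.85e-09), and not without mouse 3 (-1.98, adjusted p = 0.106). Jun in NPC-like cells kept a log2 difference of 0.64 to 0.67 when each mouse in turn was left out. That of Junb in distal tubule-like cells ran from -2.08 (called without mouse 4, adjusted p = 6.16e-10) to -0.22 (without mouse 3), and that of Fos in cluster 3 from 0.43 (without mouse 1) to 1.25 (called without mouse 2, adjusted p = 0.0225). Fos there was also called without mouse 3 (0.88, adjusted p = 0.0127) or mouse 4 (0.80, adjusted p = 0.00925). Jun in NPC-like cells was called without mouse 3 (adjusted p = 0.000323) or mouse 4 (0.00193), and Fosb was called without mouse 3 in PT-like cells (1.22, adjusted p = 0.00766) and in NPC-like cells (-1.54, adjusted p = 0.0408).

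Ier3 had a log2 difference below 0 in 16 of 18 classes (median -1.27), with 9 at an unadjusted p under 0.05. Junb was below 0 in 15 of 18 classes (median -0.63) and Zfp36 in 14 of 18 (median -0.29). Ier2 was above 0 in 11 of 18. For Ier3, Junb and Zfp36 mouse 3 was mostly the highest mouse and for Ier2 the lowest, and as a control it enters these differences. Jun was below 0 in 13 of 19 classes and Fos in 12 of 18, with mouse 3 highest in 12 and 10 of 19. Fosb was below 0 in 12 of 17, with mouse 3 highest in 4 of 19. Egr1 was below 0 in 9 of 17, Dusp1 in 8 of 17 and Atf3 in 4 of 7. The part of mouse 3 in the signs was not tested. Without mouse 3, 13 member tests were called over the classes, 7 higher and 6 lower in Trim28Δ/Δ, and without mouse 4, 62 were called, 11 higher and 51 lower. Of all tests in these fits, 1.81% were called without mouse 3 and 9.48% without mouse 4. In loop of Henle-like cells, leaving out cluster 20 moved the log2 difference of Egr1 from -1.23 (SE 0.38, adjusted p = 0.426) to -0.19 (SE 0.32, adjusted p = 0.922). That of Junb moved from -0.87 to -0.25, and that of Ier3 from 0.71 to 0.68 (SE 0.38, adjusted p = 0.694).

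The stroma is outside the Six2-cre lineage, so it served as the comparison within the same mice. For NPC-like against stroma-like cells, 0 members were called (0.498% of all genes were, edgeR interaction with the mouse as a block), 3 had an unadjusted p under 0.05 (as had 8.23% of all genes), and the lowest adjusted p was that of Egr1 (difference of log2 differences 1.15, SE 0.41, adjusted p = 0.383). With a mouse left out, this difference of Egr1 ran from 0.84 to 1.78. For PT-like against stroma-like cells, 0 members were called against 0.39% of all genes, and 4 had an unadjusted p under 0.05, as had 7.84% of all genes. The largest were Ier3 (1.51, SE 0.44, adjusted p = 0.237), Fos (1.44, SE 0.48, adjusted p = 0.353) and Fosb (1.15, SE 0.41, adjusted p = 0.419). In levels, Ier3 was at 20.5, 23.4, 103 and 24.4 CPM in stroma-like cells and at 30.6, 10.9, 28.9 and 12.005 CPM in PT-like cells. The large stroma-like value was that of mouse 3 alone. When 1 mouse was left out, 1 member was called in 3 of the 4 fits, each time a different gene: Ier3 without mouse 2 (2.23, adjusted p = 0.00447), Egr1 without mouse 3 (2.07, adjusted p = 0.0353) and Fos without mouse 4 (2.12, adjusted p = 0.0316). Of all genes, 0.609, 0.525 and 0.5% were called in these fits. The difference of Ier3 was 0.51 (SE 0.54, adjusted p = 1.0) without mouse 1.

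Shares of cells with a UMI were compared after each cell was thinned to 6800 UMIs. Ier3 was found in 22.5% of cells of mouse 1 (95% exact binomial interval 20.3 to 24.8%), 19.0% of mouse 2 (17.1 to 21.1%), 44.5% of mouse 3 (42.7 to 46.4%) and 19.2% of mouse 4 (17.4 to 21.1%), and unthinned in 37.8, 37.0, 62.6 and 34.4%. The intervals cover counting error only. The Ier3 shares of mice 1, 2 and 4 lay close together and that of mouse 3 apart. Egr1 was found in 17.2 and 17.98% of Trim28Δ/Δ cells and in 16.7 and 13.8% of control cells, the only member with separate pairs after thinning and a permutation p of 0.333, the smallest that 2 against 2 mice allow (exact, two-sided). With all UMIs the pairs of Dusp1 were separate as well (22.4 and 23.5% against 21.9 and 18.8%, exact permutation p = 0.333). By class, Fos was found in a mean of 63.6% of thinned immune-like cells (44.4 to 87.7% over the mice), against 5.06% of NPC-like and 4.96% of erythroid-like cells. The median depth of a mouse was 12624 to 14898.5 UMIs in immune-like, 17049 to 19074 UMIs in NPC-like and 8857.5 to 9780 UMIs in erythroid-like cells. Dusp1 was found in 37.0% of endothelium-like cells (34.4 to 40.2%).

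RNA free in the suspension adds UMIs to every cell. In barcodes of 10 to 100 UMIs, taken as free RNA, Jun was at 103 CPM, Ier3 at 106 CPM, Fos at 51.2 CPM and Atf3 at 4.90 CPM. Junb was at 50.7 CPM there, Zfp36 at 31.2 CPM, Fosb at 22.7 CPM, Egr1 at 36.0 CPM, Ier2 at 93.2 CPM and Dusp1 at 21.4 CPM. For every member but Jun this was above the NPC-like level of every mouse, so free RNA can make up part of those NPC-like levels. The genotype tests were made without subtracting it. The share of free RNA was estimated from haemoglobin genes alone, by their level in a class relative to that in free RNA. It was 5.28% in NPC-like, 4.80% in PT-like, 16.3% in endothelium-like, 23.7% in immune-like and 29.1% in podocyte-like cells. Erythroid-like cells make these transcripts themselves, so their estimate, at the upper limit of 95%, does not measure free RNA. After this share was subtracted, 9 of the 10 members kept the class with their highest mean, and Jun moved from immune-like (544 CPM) to podocyte-like cells (569.9 CPM).

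Among cells of 1 class and mouse, the variance of thinned UMIs relative to their mean, which is 1 for pure counting, had a median over 52 class and mouse sets of 2.02 for Jun, 1.85 for Ier3, 1.60 for Fos, 1.56 for Egr1 and 1.53 for Fosb. It was 1.0 for Atf3, 1.06 for Dusp1 and 0.978 for Zfp36. The median hides single sets: for Zfp36 it was 3.03 in immune-like cells of mouse 3, at a mean of 1.77 thinned UMIs. Correlations between members over cells of a set were weak, with medians of 0.188 for Fos and Fosb and 0.182 for Fos and Jun. Over the 76 class and mouse levels, which share mice and depth, Junb and Zfp36 went together most closely (Pearson's r of log2 levels 0.826, a description), followed by Fos and Zfp36 (0.767), while Ier3 went with neither Ier2 (-0.002) nor Egr1 (0.048).

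Outside the members, the genes whose log2 level over the same 76 points was most like the mean of the members were Sdcbp (r 0.856), Tsc22d4 (0.815), Chmp4b (0.787), Btg2 (0.783), Ifngr1 (0.777), Nfe2l2 (0.771), Shisa5 (0.768), Psme1 (0.758), Stat3 (0.751) and Irf2 (0.749), out of 6578 genes. Btg2, an antiproliferative gene, was itself on the list of further immediate early genes.

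The other genes of the response were followed in 3 lists: 47 further immediate early genes, 14 heat shock genes and 21 upstream regulators (serum response factor, its cofactors, CREB and MAP kinases). In the whole kidney edgeR called 0 genes of the lists, with 7 of the 44 further immediate early genes tested, 0 heat shock genes and 2 upstream regulators at an unadjusted p under 0.05, against 2597 of all 16524 genes (15.7%). DESeq2 called 3, while it called 4.35% of all genes: Klf2 higher (log2 difference 1.32, adjusted p = 0.00193) and Myc (-0.79, adjusted p = 0.0380) and Dusp5, a MAP kinase phosphatase gene (-1.31, adjusted p = 0.00336), lower in Trim28Δ/Δ. The median log2 difference was -0.22 for the further immediate early genes, 0.03 for the heat shock genes, -0.07 for the upstream regulators and -0.12 for the 10 members, against -0.01 for all genes. Summed levels of the further immediate early genes were 1652 and 1631 CPM in the Trim28Δ/Δ mice, 2200.1 CPM in mouse 3 and 1453 CPM in mouse 4, the same order as for the members. The summed level of the heat shock genes, which encode chaperones, had another order, with 7994 and 8559.96 CPM in the Trim28Δ/Δ mice, 7239.7 CPM in mouse 3 and 8932 CPM in mouse 4.

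By class, the sum of the members was highest in mouse 3 in 14 of 19 classes and that of the further immediate early genes in 14 of 19. The sum of the heat shock genes was lowest in mouse 3 in 19 of 19. Of the further immediate early genes 30 of 47 were highest in mouse 3 and 24 lowest in mouse 4 in the whole kidney. Among all genes of at least 20 CPM there, mouse 3 was the highest in 31.2% and the lowest in 37.8%, and mouse 4 the lowest in 30.9%. Of the 14 heat shock genes, 8 were lowest and 5 highest in mouse 3. The part of dissociation in these levels was not tested. Leading genes of the further immediate early genes were Jund (311, 332, 284 and 285 CPM in mice 1 to 4), Zfp36l1, a relative of Zfp36 (249.6, 271, 432 and 242 CPM), Btg1, Mcl1 and Zfp36l2 (61.0, 58.5, 88.7 and 58.3 CPM). Among heat shock genes Hspa8 was at 1212, 1337, 697 and 1366 CPM, Hspa5 at 635, 709, 448 and 677 CPM, Hspe1 at 788, 823, 631 and 805 CPM and Hsp90aa1 at 659.8, 730.2, 657 and 822 CPM. Hsp90ab1, at 3516, 3737, 3970.2 and 3954 CPM, was highest in mouse 3 instead. Of the upstream regulators, Map2k2 was at 134, 143, 88.8 and 136 CPM, also lowest in mouse 3. Rps6ka3, Mapk3 and Atf2 were further leading genes of that list.

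**Figure D5:**
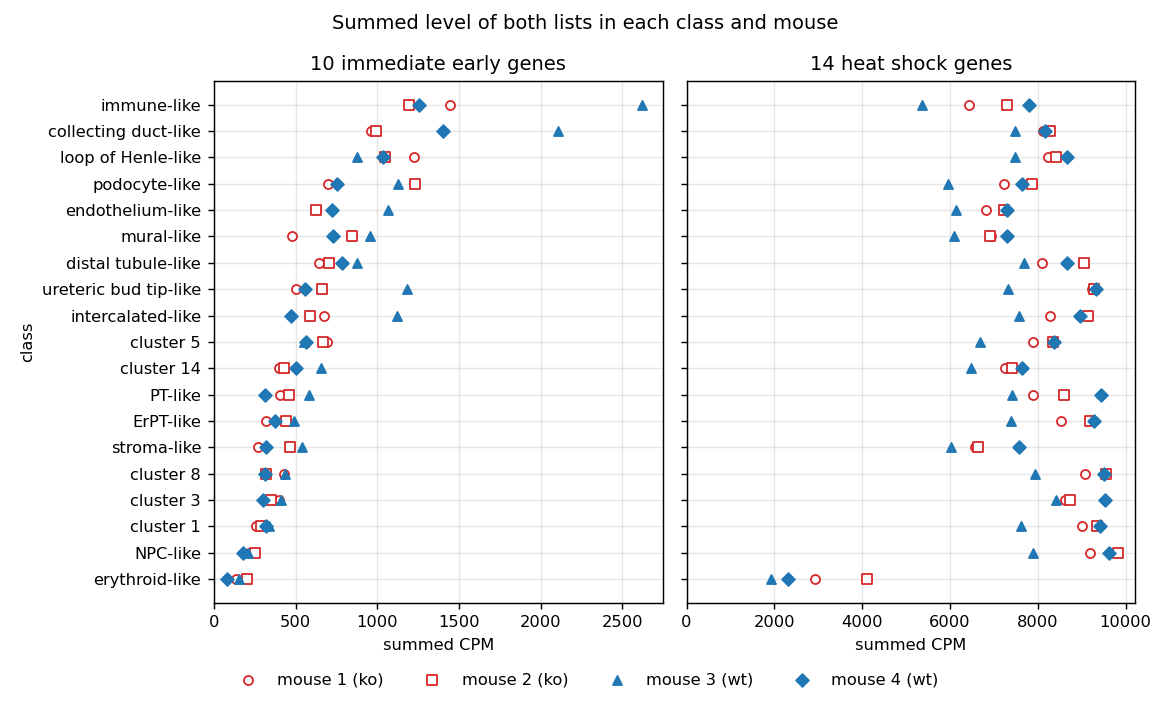
Summed level (CPM) of the 10 immediate early genes and of the 14 heat shock genes in each of the 19 classes and 4 mice, with Trim28Δ/Δ and control mice marked by symbol. Mouse 3 was highest for the immediate early sum in 14 of 19 classes and lowest for the heat shock sum in 19 of 19.

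Within classes, 3 of 532 tests of further immediate early genes were called higher and 1 lower in Trim28Δ/Δ, 1 of 234 tests of heat shock genes was called higher, and 0 of 336 tests of upstream regulators were called (DESeq2 called 0), beside the 0.311% of all tests. At an unadjusted p under 0.05 stood 109, 16 and 13 tests of these lists, where 6.93% of all tests did. Hspb1, a small heat shock protein gene, was at 118 and 105 CPM in Trim28Δ/Δ and at 22.6 and 30.4 CPM in control loop of Henle-like cells (log2 difference 2.09, SE 0.22, adjusted p = 0.0230), where 0.146% of genes were called. Klf2, a Krüppel-like factor, was at 54.2 and 55.5 CPM against 13.8 and 17.2 CPM in distal tubule-like cells (1.84, SE 0.27, adjusted p = 0.00865). Rhob, an inducible small GTPase gene, was at 57.4 and 66.8 CPM against 26.4 and 12.9 CPM in the same cells (1.51, SE 0.29, adjusted p = 0.0421), where 0.628% of genes were called. In these 3 genes both Trim28Δ/Δ mice stood well above both controls. Btg1, an antiproliferative gene, was at 241 and 230.1 CPM against 133 and 153 CPM in cluster 3 (led by Spon1, Sim2 and Epha4; 0.68, SE 0.13, adjusted p = 0.0348), with 0.808% of genes called. Myc, the growth-promoting transcription factor, was at 16.4 and 14.6 CPM in Trim28Δ/Δ and at 43.8 and 36.5 CPM in control NPC-like cells (-1.51, SE 0.27, adjusted p = 0.0238), with 1.47% of genes called. Of these 5 genes, Hspb1 alone kept its call without any single mouse. Klf2 lost it without mouse 1 (adjusted p = 0.185), where its log2 difference was 1.83. Rhob lost it without mouse 1 (adjusted p = 0.331) or mouse 2 (adjusted p = 0.0700), at log2 differences of 1.61 and 1.45, and also with DESeq2 (adjusted p = 0.128) and with DESeq2 size factors in edgeR (adjusted p = 0.0569). Btg1 lost it without mouse 1 (adjusted p = 0.287) or mouse 2 (adjusted p = 0.127), at 0.64 and 0.73, and Myc without mouse 1 (adjusted p = 0.350) or mouse 2 (adjusted p = 0.366), at -1.58 and -1.44.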

How the data were processed

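Single-cell RNA-seq was analysed from 1 pooled gene expression library with a multiplexing tag library. The deposited values were raw UMI counts per gene and barcode, made by the authors with Cell Ranger 6.0.0 per the submitters' processing notes (the header of the count matrix names version 4). The same notes name GRCm38 and mm10 without saying for which files, and the annotation was not given in the sources used here. Barcodes with at least 6890 UMIs (the cut that Cell Ranger's rule gives for 24000 expected cells), 200 genes and no more than 10% of UMIs from mitochondrial genes entered the analysis. Tags were called with HTODemux in Seurat 5.3.0 (quantile 0.99), 4721 barcodes with more than 1 tag were dropped as doublets, 2680 had no tag and 4508 carried 1 of 4 tags with no listed mouse, which were not used. Cells were clustered after the members, the further immediate early genes and the heat shock genes had been removed from the variable genes. The upstream regulators were not removed. The thresholds for naming clusters were set after the clusters had been seen.

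UMIs were summed per mouse and class (165957 to 7679755 UMIs) and tested with edgeR 4.0.16 in R 4.3.3 (TMM, filterByExpr, quasi-likelihood test, Benjamini-Hochberg over all genes of a fit), after a check on simulated data. DESeq2 1.42.0 was an alternative, as were Scrublet in scanpy 1.11.5 (7.65% of used cells marked), other tag, mitochondrial and UMI limits, and each mouse left out. Genes named were all members, list genes called in any class, the 5 of each list with the highest level (1 of them is not reported here), the 10 most like the members, Trim28 and class markers. The members and lists were chosen with earlier results of these data known. With 2 mice a genotype, the edgeR p-values set a difference against a variation estimated from these mice and drawn toward that of other genes. They cover these mice only.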

Additional observations from a re-analysis of the deposited data

How the results depend on the processing

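For the 10 immediate early genes the count of members called in the whole kidney stayed at 0 under DESeq2, DESeq2 size factors, no filter on low counts, a minimum of 2500 UMIs, tag share, k-means tags, removal of Scrublet doublets, at most 5% mitochondrial UMIs and removal of clusters of 1 mouse, the last of which was added after seeing the data. It ran from 0 to 7 when 1 mouse was left out (4 without mouse 3, 7 without mouse 4). Over the 19 classes 0 became 28 with no filter on low counts, 2 higher and 26 lower in Trim28Δ/Δ, and 2 to 62 when 1 mouse was left out (2 without mouse 1, 4 without mouse 2, 13 without mouse 3, 62 without mouse 4). Of all tests, 1.12% were called with no filter and 0.188, 0.255, 1.81 and 9.48% without mice 1 to 4. These fits assume that the lone mouse of a genotype varies like the other pair, and the cause of the moves was not tested. The fit for PT-like against stroma-like cells gave 0 to 1 with a mouse left out, and that for NPC-like cells 0 to 0. Without the replicate block (the mouse, which gave cells to both classes) 0 members were called in either fit, with Ier3 at 1.70 (adjusted p = 0.871) for PT-like cells, while the calls over all genes went from 53 to 8 for NPC-like and from 48 to 0 for PT-like cells. The class with the highest mean was kept by 6 of 10 members without clusters of 1 mouse, since the collecting duct-like class then had under 10 cells of mouse 3, and by 9 to 10 with a mouse left out.

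Signs turned in the whole kidney: Fosb to -0.0831 and Egr1 to -0.0748 at no more than 5% mitochondrial UMIs, Egr1 to -0.043 and Jun to -0.0074 with tag share, Jun to -0.004 with no filter and -0.0003 without Scrublet doublets, and Junb from -0.58 to 0.0081 without clusters of 1 mouse. With a mouse left out the log2 difference ran from -0.50 to 0.08 for Fos, -0.0005 to 0.11 for Fosb, -0.30 to 0.41 for Jun, -1.17 to 0.45 for Junb, -0.0771 to 0.20 for Egr1, -1.33 to 0.84 for Atf3, -0.028 to 0.32 for Ier2, -1.05 to 0.30 for Ier3 and -0.67 to 0.41 for Zfp36, the outer values being those without mouse 3 or mouse 4 except the lower value of Fosb. Differences in shares of cells, in percentage points, ran from -4.77 to 2.999 for Fos, -0.435 to 1.52 for Fosb, -1.58 to 9.54 for Jun, -5.68 to 6.46 for Junb, -1.56 to 1.18 for Atf3, -1.11 to 4.09 for Ier2, -23.8 to 1.57 for Ier3 and -3.35 to 3.32 for Zfp36, and with all UMIs were 0.763 for Atf3 and 0.563 for Zfp36. Rhob in distal tubule-like cells lost its call with DESeq2 (adjusted p = 0.128) and with DESeq2 size factors (0.0569). All genes called in the whole kidney numbered 34, against 718 with DESeq2, 903 with no filter, 62 without mouse 1, 135 without mouse 2, 1919 without mouse 3, 4420.0 without mouse 4, 79 without clusters of 1 mouse and 83 with k-means tags. Classes held 10 to 387 cells a mouse, and the size of difference that could be detected was not measured for the members.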

Other observations

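The median share of mitochondrial UMIs a cell was 4.10 and 3.89% in the Trim28Δ/Δ mice, 2.92% in mouse 3 and 3.52% in mouse 4, so the mouse with the highest levels of Ier3, Junb, Zfp36 and Fos over the whole kidney had the lowest mitochondrial share. The part of this in the levels of the immediate early genes was not tested.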
